A study of Mus musculus with 6 samples.

Results

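The 45 genes described here encode the antigen receptors, signalling proteins, cytotoxic proteins and immunoglobulins of T cells, natural killer (NK) cells, B cells and plasma cells. They were picked by symbol for what they encode. No measured value entered the rule, but earlier results of these data were known when they were picked. All 45 were found among the 21899 genes of the deposited counts. Of these, 35 passed a filter on low counts and were tested together with the rest of the 14956 tested genes. The other 10 (Cd3d, Sh2d1a, Ptprcap, Icos, Ctla4, Klrd1, Foxp3, Cd79a, Ms4a1 and Mzb1) had between 0 and 32 counts in any library and are given as values only.

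Bulk RNA sequencing was done on the thalamus of wild-type male C57BL/6J mice bought at an age of 8 to 10 weeks. All mice received a single dose of 50 Gy to the left thalamus and, 2 weeks later, 2 µL of an adeno-associated virus of serotype 9 (AAV9) into the thalamus. The RC group (3 mice) received AAV9 GFAP104::tdTomato, which carries a red fluorescent protein alone, and the RN group (3 mice) received AAV9 GFAP104::mND1-tdTomato, which adds mouse NeuroD1 (ND1), a transcription factor of developing neurons. GFAP104 is a promoter made for expression in astrocytes, so the transgene was not aimed at lymphocytes, and both groups share the radiation and the injection. The tissue was taken 6 weeks after irradiation from mice perfused with saline and was sequenced without sorting of cells, and mice without radiation were not analysed here.

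A T cell recognizes antigen through a receptor of variable chains whose constant parts are encoded by Trac and Trbc2, and signals through the CD3 chains, the kinases Lck and ZAP-70 and the adaptor LAT. Cytotoxic T cells and NK cells kill targets with perforin and granzymes. B cells carry membrane immunoglobulin with CD79, and plasma cells secrete immunoglobulin, which the J chain joins into polymers of IgM and IgA. Such cells are scarce in the healthy brain and lie mainly at its borders, and CD8+ T cells are known to enter irradiated brain tissue. In whole tissue, fewer lymphocytes and less RNA per lymphocyte cannot be told apart.

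The libraries held between 16561663 and 18657015 counts, so that 3 counts correspond to 0.160 to 0.179 counts per 1000000 (CPM) after scaling. Counts of Neurod1, which the RN virus carries, were 84, 91 and 90 in the RC mice and 1123, 1711 and 910 in the RN mice, which fits the labels of all 6 libraries. All 7 listed genes of thalamic neurons were detected, with a summed level of 723.9 to 1879.8 CPM per library. Among the other cell types, the 10 genes of choroid plexus stood apart in RC replicates 1 and 2, where they summed to 2746 and 8348 CPM, against 321.8 CPM in RC replicate 3 and 73.1 to 148.5 CPM in the RN mice.

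Across the lymphocyte genes, 1 library stood apart from the other 5. RC replicate 1 had the highest CPM for 32 of the 45 genes (71.1%) and for 26 of the 35 tested ones (74.3%), whereas it was the highest library for 13.6% of all tested genes. Its level was at least 2 times the median of the other 5 libraries in 30 of the 45 genes, and the median of that ratio over the 45 genes was 2.32. The 45 genes together reached 293.4 CPM in RC replicate 1, 125.4 in RC replicate 2 and 95.2 in RC replicate 3, against 88.5, 127.1 and 117.7 CPM in the RN mice. The other RC mice thus lay within the range of the RN mice. At the other end, RN replicate 1 was the lowest library for 20 of the 45 genes, against 16.6% of all tested genes.

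**Figure D1:**
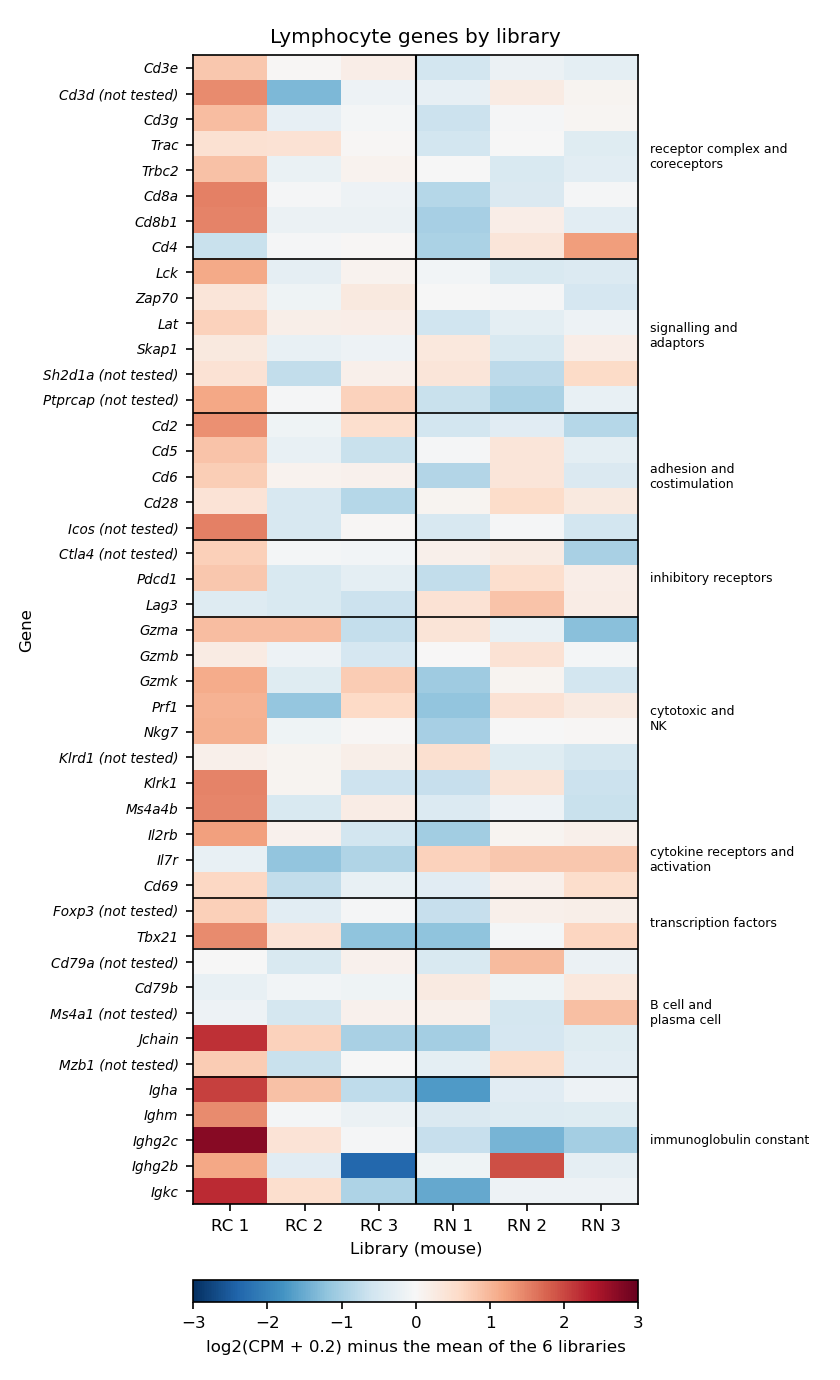
Heatmap of the 45 genes (rows, grouped by role) in the 6 libraries (columns), with color for log2(CPM + 0.2) minus the mean of the gene over the 6 libraries. The column of RC replicate 1 is red for most rows, and Il7r and Lag3 are red in all 3 RN columns.

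**Figure D2:**
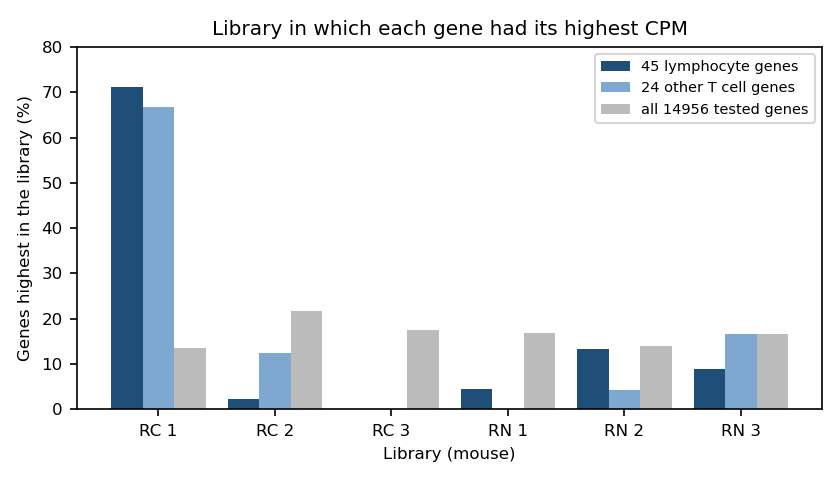
Percent of genes (vertical axis) that had their highest CPM in each library (horizontal axis), for the 45 lymphocyte genes, 24 further T cell genes and all 14956 tested genes. RC replicate 1 was the highest library for 71.1% of the lymphocyte genes, 66.7% of the further T cell genes and 13.6% of all tested genes.

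In the comparison of RN with RC, no lymphocyte gene reached both an adjusted p under 0.05 (edgeR's quasi-likelihood test, Benjamini-Hochberg) and a change of 2-fold or more, by which 0.0602% of all tested genes were called higher and 0.0134% lower. At an unadjusted p under 0.05, 2 of the 35 tested genes were higher in RN (Lag3 and Il7r), where 5.44% of all tested genes were, and 6 were lower (Ighg2c, Cd2, Igha, Jchain, Ighm and Trac), where 6.33% were. Every RN mouse was above every RC mouse in 2 of the 35 (Lag3 and Il7r), where 8.18% of all tested genes were, and below in 6 (Cd3e, Trac, Lat, Cd2, Ighm and Ighg2c), where 8.11% were. Ighg2c, in both sets of lower genes, passed the filter on low counts through the RC mice alone. With the replicate number as a block, 3 of the 35 were lower at an unadjusted p under 0.05, against 6.97% of all tested genes. DESeq2's Wald test called Lag3 and Il7r higher and Ighg2c lower by the same thresholds, which 0.610% and 0.536% of its tested genes passed.

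Of the 35 tested genes, 26 had a negative log2 fold change (lower in RN) and 9 a positive one, with a median of -0.69 beside 0.00372 over all tested genes. The size of this tilt depended on RC replicate 1, a library singled out from these same values. Without it, 21 values were negative and 14 positive, and the median was -0.23. All 26 values that had been negative moved toward or past zero. That movement follows from leaving out a library picked for its high values, so it is no separate support. At an unadjusted p under 0.05, Ighg2c alone was then lower, and Il7r, Lag3 and Cd28 were higher, against 6.81% and 6.72% of all tested genes. Ighg2c passed the filter here too through the RC mice alone.

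**Figure D3:**
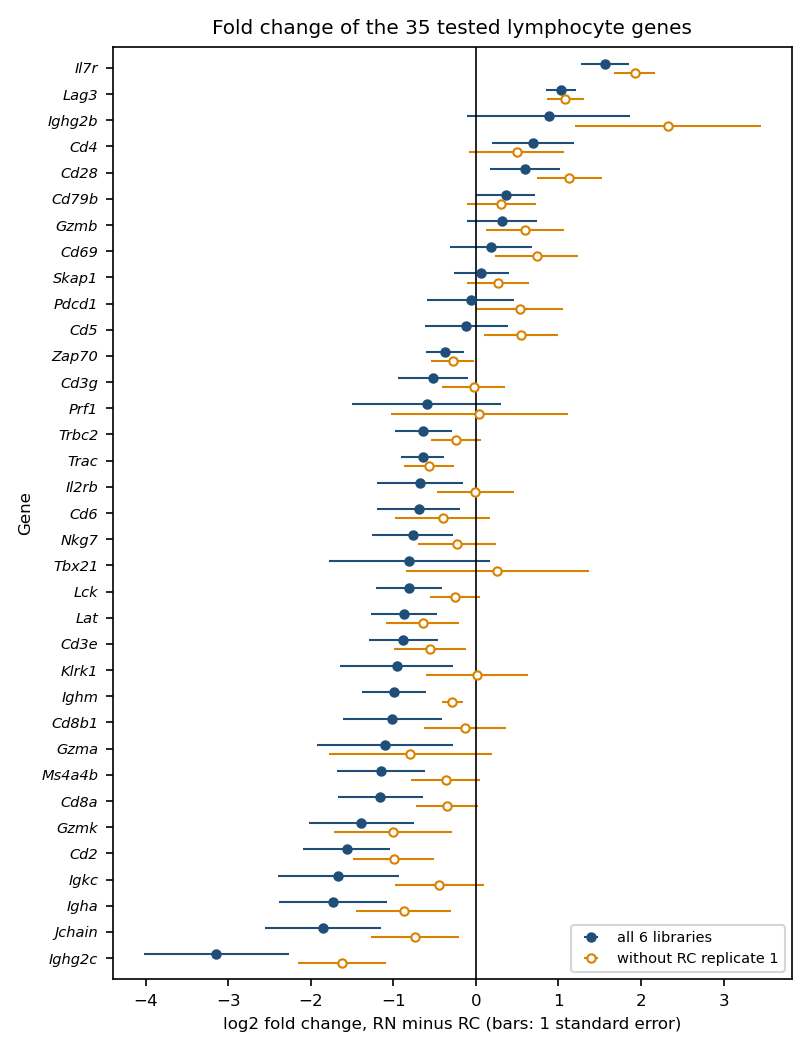
Log2 fold change of the 35 tested genes (horizontal axis, RN minus RC, bars of 1 standard error) with all 6 libraries (filled circles) and without RC replicate 1 (open circles), in the order of the values with all libraries. The open circles lie nearer to or right of zero for the genes with negative values, while Il7r and Lag3 stay at or above 1.03.

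Apart from Cd4, the genes of the T cell receptor complex had at most 125 counts in a library and their highest CPM in RC replicate 1. Trac (ENSMUSG00000076928), the constant part of the alpha chain, had 83, 76 and 59 counts in the RC mice and 37, 62 and 45 in the RN mice. The lowest RC mouse thus lay just above the highest RN mouse after scaling, with 4.19 ± 0.705 CPM in the RC mice and 2.68 ± 0.574 CPM in the RN mice (SD, n = 3), a log2 fold change of -0.64 (SE 0.262, edgeR adjusted p = 0.386). Cd3e, a CD3 signalling chain, had counts of 30, 15 and 18 in the RC mice and of 9, 14 and 12 in the RN mice. Its groups did not overlap either, and its log2 fold change was -0.88 (SE 0.413, edgeR adjusted p = 0.470). In Cd3g the groups overlapped, at 66, 26 and 31 counts against 19, 34 and 35. Cd3d, below the filter, went from 28, 1 and 7 counts in the RC mice to 6, 11 and 9 in the RN mice. Summed over the 3 CD3 genes, Trac and Trbc2, the level was 17.2, 9.62 and 9.79 CPM in the RC mice and 7.13, 8.55 and 7.99 CPM in the RN mice. All 3 RC mice were above all 3 RN mice in this sum, by a narrow margin outside RC replicate 1.

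Trbc2, the constant part of the receptor's beta chain, had 100, 43 and 56 counts in the RC mice and 49, 39 and 42 in the RN mice, with overlapping groups. Its counts carry a further limit, because the gene has a near copy, Trbc1. In the GENCODE M21 transcripts, 30.9% of the 100-base windows of Trbc2 also occur in Trbc1, and the first 259 bases of both transcripts are the same. Trbc1 itself had 33, 8 and 2 counts in the RC mice and 7, 15 and 7 in the RN mice.

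The coreceptors went in different ways. Cd8a encodes a chain of CD8, the coreceptor of cytotoxic T cells, and was at 7.01, 2.27 and 2.06 CPM in the RC mice and 1.19, 1.66 and 2.24 CPM in the RN mice. Outside RC replicate 1 the groups overlapped. The log2 fold change of -1.15 (SE 0.518, edgeR adjusted p = 0.439) was -0.35 without that mouse. Cd8b1, the partner chain, was at 4.20, 1.19 and 1.202 CPM in the RC mice and at 0.595, 1.60 and 1.06 CPM in the RN mice, again with overlap. Cd4, the coreceptor of helper T cells, which myeloid cells can also carry, was the one gene of the complex without its peak in RC replicate 1. It was at 3.48, 5.43 and 5.78 CPM in the RC mice and 2.79, 7.27 and 13.6 CPM in the RN mice, so that RN held both the lowest and the highest library (log2 fold change 0.69, SE 0.495, edgeR adjusted p = 0.679). That value was 0.0446 without RN replicate 3 and 1.09 without RN replicate 1.

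Of all counts of the CD8 genes and Cd4, the CD8 genes took 76.3% in RC replicate 1 (exact 95% interval 70.7 to 81.3), 38.9% in RC replicate 2 (31.1 to 47.2) and 36.1% in RC replicate 3 (28.6 to 44.1). In RN replicates 1, 2 and 3 the share was 39.0% (28.0 to 50.8), 31.0% (24.6 to 37.9) and 19.5% (15.2 to 24.4). The groups overlapped, and the share of RC replicate 1 lay above all others. Relative to the sum of the CD3 genes, Trac and Trbc2, the CD8 genes stood at 0.651 in RC replicate 1, at 0.360 and 0.333 in the other RC mice and at 0.250, 0.381 and 0.413 in the RN mice. RC replicate 1 thus had more CD8 counts per receptor count than the other 5 mice.

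The 6 signalling genes gave no call. Lck, the kinase that starts receptor signalling, was at 6.78, 2.45 and 3.21 CPM in the RC mice and 2.79, 2.14 and 2.18 CPM in the RN mice. RC replicate 2 lay within the RN range, and the log2 fold change was -0.81 (SE 0.396, edgeR adjusted p = 0.492), or -0.26 without RC replicate 1. Zap70, the kinase that binds phosphorylated CD3, had 131, 87 and 123 counts in the RC mice and 95, 103 and 71 in the RN mice. Lat, the adaptor it phosphorylates, had 26, 16 and 17 counts against 8, 12 and 13, without overlap of the groups (log2 fold change -0.87, SE 0.401, edgeR adjusted p = 0.458). Skap1, an adaptor of integrin activation, overlapped, with 46, 29 and 32 counts against 44, 27 and 43.

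The other signalling genes were below the filter. Sh2d1a, the adaptor SAP, had at most 8 counts in a library, and 24.2% of its 100-base windows also occur in other transcripts, mainly of Tenm1. Ptprcap, a protein associated with the phosphatase CD45, had 24, 8 and 16 counts in the RC mice and 4, 3 and 7 in the RN mice. All RN mice were below all RC mice, but 83.8% of its 100-base windows also occur in transcripts of Rps6kb2 and Coro1b, so its counts are uncertain.

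Among the adhesion and costimulation genes, Cd2 (ENSMUSG00000027863), a T and NK cell adhesion receptor, had the largest fitted difference. Its counts were 46, 13 and 23 in the RC mice and 9, 12 and 7 in the RN mice, which is 1.56 ± 0.925 against 0.522 ± 0.126 CPM (SD, n = 3). The groups did not overlap, RC replicate 2 coming close to RN. The log2 fold change was -1.56 (SE 0.525, edgeR adjusted p = 0.278) and -0.99 without RC replicate 1. Cd28, the receptor of the main costimulatory signal, had 37, 17 and 13 counts in the RC mice and 27, 43 and 34 in the RN mice. RC replicate 1 lay within the RN range and the other RC mice below it. The log2 fold change of 0.59 (SE 0.428, edgeR adjusted p = 0.682) became 1.13 without it (SE 0.393, edgeR adjusted p = 0.284). Cd5 and Cd6, scavenger-type receptors of T cells, overlapped between the groups, with 42, 17 and 12 against 20, 30 and 17 counts and 27, 15 and 16 against 6, 21 and 10 counts. Icos, an inducible costimulator, had 32 counts in RC replicate 1 and 5 to 9 in the other 5 libraries.

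The inhibitory receptor Lag3 (ENSMUSG00000030124), which binds MHC class II and which microglia also express, gave the smallest p of the 35 tested genes. It was at 11.1, 10.6 and 9.28 CPM in the RC mice and at 19.8, 26.6 and 17.0 CPM in the RN mice. Every RN mouse was above every RC mouse, and RC replicate 1 was not set apart. The mean was 10.3 ± 0.947 CPM in the RC mice and 21.1 ± 4.90 CPM in the RN mice (SD, n = 3), a log2 fold change of 1.03 (SE 0.187). Its adjusted p was 0.0967 in edgeR's quasi-likelihood test, 0.0860 in edgeR with the replicate block and 0.000244 in DESeq2's Wald test. The 8 listed microglia genes, such as P2ry12 and Cx3cr1, summed to 861.2, 971.5 and 898.9 CPM in the RC mice and 757.5, 1018.4 and 1051.2 CPM in the RN mice, with overlapping groups and a median log2 fold change of 0.0841. Their part in the Lag3 values was not tested. Pdcd1, which encodes PD-1, had 41, 14 and 17 counts in the RC mice and 11, 34 and 26 in the RN mice, and Ctla4, below the filter, had 0 to 8 counts in a library.

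Il7r (ENSMUSG00000003882), the receptor chain for interleukin-7, was the other gene that separated the groups upward. Its counts were 53, 24 and 31 in the RC mice and 97, 118 and 112 in the RN mice, or 2.06 ± 0.807 against 6.11 ± 0.299 CPM (SD, n = 3). The RN mice lay close together, and all were above RC replicate 1. The log2 fold change was 1.56 (SE 0.292) and 1.92 without RC replicate 1, with an adjusted p of 0.0986 in edgeR's quasi-likelihood test, 0.105 in edgeR with the replicate block and 0.000737 in DESeq2's Wald test. The ligand gene Il7 had 1 to 10 counts in a library. Il2rb, a receptor chain for interleukins 2 and 15, had 121, 51 and 32 counts in the RC mice and 21, 55 and 55 in the RN mice, and its log2 fold change went from -0.68 to -0.00593 without RC replicate 1. Cd69, an early activation antigen, had 30, 9 and 15 against 13, 22 and 28 counts. Outside Il7r, the genes of this group thus overlapped between RC and RN.

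**Figure D4:**
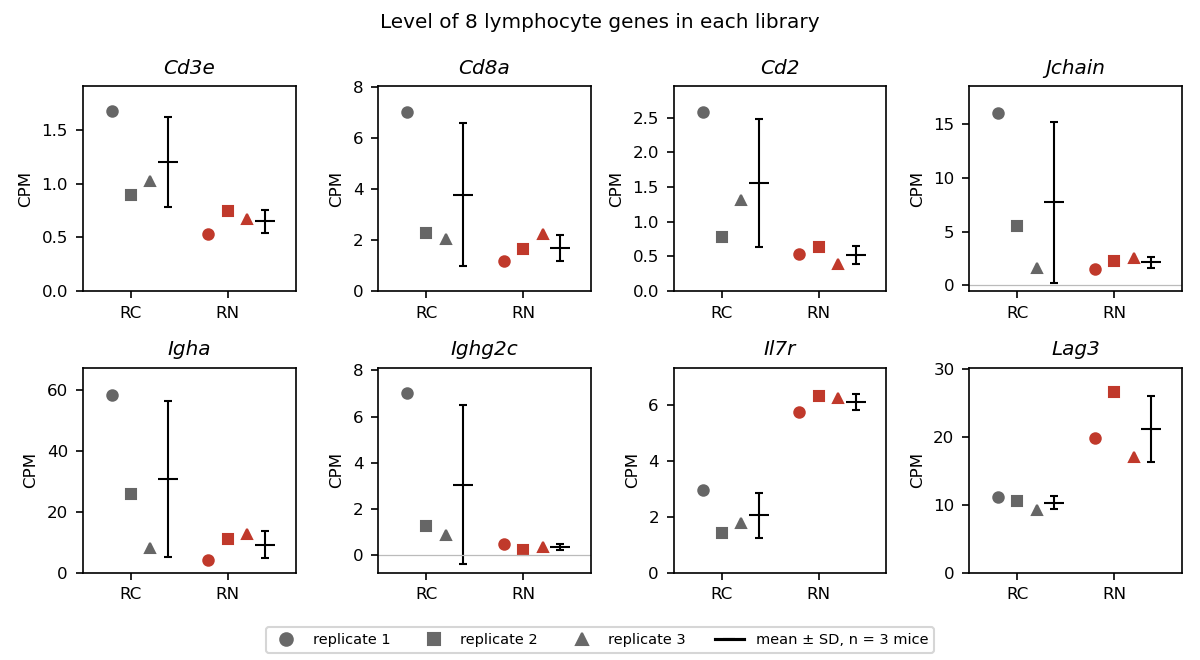
CPM (vertical axes, each with its own range) of 8 lymphocyte genes in the RC and RN mice, with a marker shape for each replicate number and a bar for the mean ± SD of 3 mice. RC replicate 1 lies above the other mice in Cd3e, Cd8a, Cd2, Jchain, Igha and Ighg2c, whereas in Il7r and Lag3 all 3 RN mice lie above all 3 RC mice.

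The cytotoxic and NK cell genes overlapped between the groups, and none of the 7 tested ones had an unadjusted p under 0.05. Together the 8 genes reached 16.0 CPM in RC replicate 1, 5.97 and 6.93 CPM in the other RC mice, and 4.52, 7.11 and 4.86 CPM in the RN mice. Relative to the sum of the CD3 genes, Trac and Trbc2, this was 0.932 in RC replicate 1, 0.621 and 0.708 in the other RC mice and 0.633, 0.831 and 0.608 in the RN mice. Gzmk, a granzyme of memory T cells, had 27, 7 and 20 counts in the RC mice and 3, 12 and 6 in the RN mice. Ms4a4b, a membrane protein of T cells, had 87, 19 and 34 against 20, 27 and 17, and Nkg7, a protein of cytotoxic granules, 61, 23 and 27 against 11, 28 and 28. Their log2 fold changes of -1.39, -1.15 and -0.76 were -0.998, -0.37 and -0.23 without RC replicate 1. Klrk1, the activating receptor NKG2D, had 51, 16 and 9 against 8, 23 and 9 counts. Prf1 (perforin), Gzma and Gzmb were at most at 22 counts in a library and Klrd1, the CD94 chain, at most at 9.

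Both transcription factors had few counts, and Foxp3 was below the filter. Tbx21, the T-bet gene of type 1 and cytotoxic lymphocytes, had 25, 10 and 1 counts in the RC mice and 1, 7 and 13 in the RN mice, and Foxp3, which defines regulatory T cells, had 6, 1 and 2 against 0, 3 and 3. Windows of 100 bases shared with neighbours such as Flicr make up 15.5% of the Foxp3 transcripts. At this depth no difference in either was detectable.

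Short sequences before the genes were looked at for 4 motifs, on both strands, in RefSeq promoters of GRCm38.p6 that run from 250 bases before to 50 bases after a start site. Of the 45 genes, 22 matched, with 26 promoters. The RUNX motif TGTGGTT was in 5 of the 26 (19.2%), those of Gzma, Gzmb, Il7r, Klrk1 and Lck, and in 5.27% of all 32851 promoters. The STAT motif TTCNNNGAA was in 5 as well (19.2%, those of Cd3d, Foxp3, Gzmb, Il7r and Nkg7), against 8.3% of all. The ETS motif CCGGAA was in 2 (7.69% against 14.9%), and the octamer ATGCAAAT was in none (1.74% of all). The promoters of Il7r (chr15:9529827-9530126, minus strand) and of Lck (the upstream one, chr4:129573592-129573891, minus strand) are shown because their genes had fitted differences of opposite sign and both hold TGTGGTT, in capitals, with the TTCNNNGAA match of Il7r also in capitals. A match is a description of letters, and no binding was measured.
Il7r: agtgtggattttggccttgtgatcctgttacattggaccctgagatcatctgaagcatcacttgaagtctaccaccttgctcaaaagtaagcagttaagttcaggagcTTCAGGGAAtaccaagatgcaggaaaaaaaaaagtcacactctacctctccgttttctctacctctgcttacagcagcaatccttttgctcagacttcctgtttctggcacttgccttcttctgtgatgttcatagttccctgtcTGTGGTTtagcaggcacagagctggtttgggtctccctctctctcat
Lck: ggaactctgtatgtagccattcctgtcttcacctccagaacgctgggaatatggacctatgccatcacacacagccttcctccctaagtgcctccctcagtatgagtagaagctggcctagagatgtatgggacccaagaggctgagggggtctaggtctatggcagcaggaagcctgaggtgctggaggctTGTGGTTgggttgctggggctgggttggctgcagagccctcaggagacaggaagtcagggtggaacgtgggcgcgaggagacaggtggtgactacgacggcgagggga

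Genes of B cells themselves were scarce. Cd79a and Cd79b, the signalling chains of the B cell receptor, had 4 to 18 and 14 to 22 counts in a library, and Ms4a1, which encodes CD20, had 0 to 6. None of them was set apart in RC replicate 1. Mzb1, a chaperone of antibody-secreting cells, had 0 to 6 counts and shares 49.4% of its 100-base windows with another gene. Jchain (ENSMUSG00000067149), the chain that joins IgA and IgM polymers, was at 287, 93 and 28 counts in the RC mice and 26, 43 and 46 in the RN mice. RC replicate 3 lay within the RN range. The log2 fold change was -1.85 (SE 0.703, edgeR adjusted p = 0.348), and -0.74 without RC replicate 1, whose level was 7.0 times the median of the other 5 libraries.

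The immunoglobulin constant genes held the largest differences among the mice. Summed over Igha, Ighm, Ighg2c, Ighg2b and Igkc, the level was 170.6 CPM in RC replicate 1, 62.0 CPM in RC replicate 2 and 32.8 CPM in RC replicate 3, against 24.4, 40.9 and 38.8 CPM in the RN mice. RC replicates 1 and 2, highest in this sum, were also highest in the choroid plexus genes, whose part in it was not tested. These 5 genes took 58.1% of the counts of all 45 genes in RC replicate 1, 49.5% and 34.5% in the other RC mice and 27.6% to 33.0% in the RN mice. Igha (ENSMUSG00000095079), the heavy chain of the mucosal antibody IgA, had 1045, 434 and 143 counts in the RC mice and 70, 206 and 226 in the RN mice, so the groups overlapped through RC replicate 3 (log2 fold change -1.73, SE 0.655, edgeR adjusted p = 0.345, and -0.88 without RC replicate 1). Igkc, the kappa light chain, had 803, 222 and 84 counts against 52, 157 and 150 in the RN mice, with RC replicate 1 again the highest. Ighm (ENSMUSG00000076617), the heavy chain of IgM, was at 57.2, 20.7 and 18.9 CPM in the RC mice and at 15.7, 16.5 and 16.6 CPM in the RN mice. Its groups did not overlap, but the log2 fold change of -0.99 (SE 0.392, edgeR adjusted p = 0.372) was -0.29 without RC replicate 1.

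The share of Igha among the heavy chains varied widely from mouse to mouse. Of the counts of Igha and Ighm, Igha took 50.6% (exact 95% interval 48.4 to 52.8), 55.6% (52.0 to 59.1) and 30.2% (26.1 to 34.6) in the RC mice and 21.0% (16.7 to 25.7), 40.1% (35.8 to 44.5) and 43.2% (38.9 to 47.6) in the RN mice. RC replicate 3 and RN replicate 1 were the low ones, and the groups overlapped.

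Ighg2c (ENSMUSG00000076612), the IgG2c heavy chain of this mouse strain, had the largest fitted difference of the 35 tested genes. Its levels were 7.01, 1.25 and 0.859 CPM in the RC mice and 0.476, 0.214 and 0.335 CPM in the RN mice. No RN mouse reached the lowest RC mouse, and the RN counts of 8, 4 and 6 were just above the limit of 3. These RN counts were all under the filter's minimum of 10, so Ighg2c was tested only because of its RC counts of 125, 21 and 15. Its rank by fitted difference and its place among the tested genes lower in RN are thus no separate support. The log2 fold change was -3.14 (SE 0.881), and -1.62 without RC replicate 1 (SE 0.535). Its adjusted p was 0.203 in edgeR's quasi-likelihood test, 0.121 in edgeR with the replicate block and 0.00694 in DESeq2's Wald test. Ighg2b, another IgG subclass, did not follow it, with 49, 14 and 1 counts in the RC mice against 17, 90 and 16 in the RN mice. Its log2 fold change of 0.88 (SE 0.988, edgeR adjusted p = 0.816) was 2.33 without RC replicate 1 and -0.36 without RN replicate 2. Of the counts of both IgG2 genes, Ighg2c took 71.8% (exact 95% interval 64.5 to 78.4), 60.0% (42.1 to 76.1) and 93.8% (69.8 to 99.8) in the RC mice and 32.0% (14.9 to 53.5), 4.26% (1.17 to 10.5) and 27.3% (10.7 to 50.2) in the RN mice. The RC shares were all above the RN shares, a comparison chosen after the values were seen and given without a test. Ighg1, outside the 45 genes, had 29 counts in RN replicate 1, 1 in RN replicate 3 and 0 elsewhere.

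**Figure D5:**
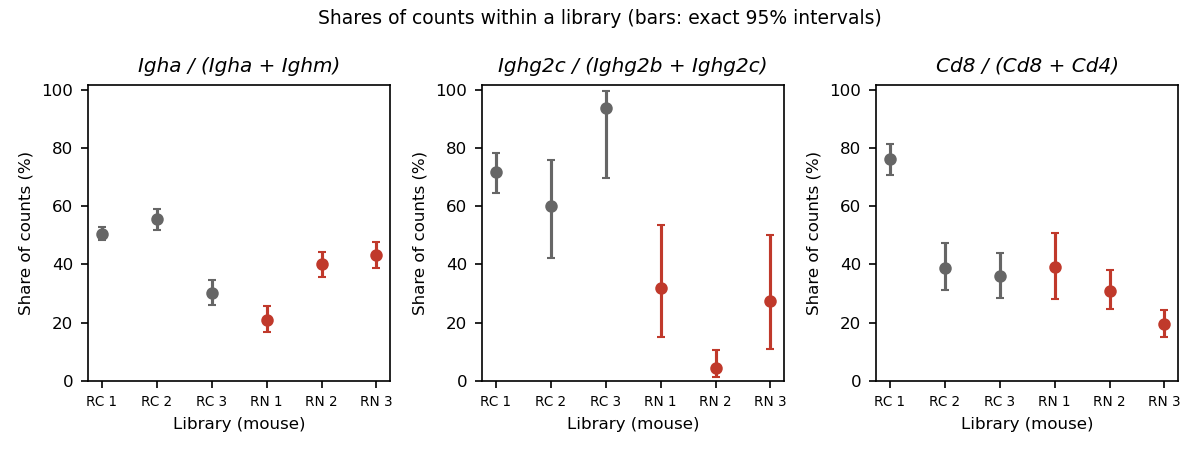
Share of counts within each library (percent, vertical axes) taken by Igha of Igha and Ighm, by Ighg2c of Ighg2b and Ighg2c, and by the CD8 genes of Cd8a, Cd8b1 and Cd4, for RC (gray) and RN (red) mice, with bars for exact 95% intervals that cover counting error only. The Ighg2c share is at least 60.0% in the RC mice and at most 32.0% in the RN mice, while the other shares overlap between the groups.

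The IgG2 genes are related in sequence, so how reads were divided between them matters for these shares. Over the compared transcripts Ighg2c and Ighg2b are 86.4% identical, and 5.49% of the 50-base windows of Ighg2c but none of its 100-base windows occur in Ighg2b. The first 180 bases of their first exons (GRCm38, chr12:113288753-113288932 for Ighg2c and chr12:113307754-113307933 for Ighg2b, both on the minus strand) are printed to show how far reads can be told apart. Capitals mark the 16 bases that differ.
Ighg2c: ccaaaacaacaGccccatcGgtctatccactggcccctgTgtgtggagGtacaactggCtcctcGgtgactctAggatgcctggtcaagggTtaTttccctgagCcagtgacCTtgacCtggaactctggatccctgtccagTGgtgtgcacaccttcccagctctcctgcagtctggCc
Ighg2b: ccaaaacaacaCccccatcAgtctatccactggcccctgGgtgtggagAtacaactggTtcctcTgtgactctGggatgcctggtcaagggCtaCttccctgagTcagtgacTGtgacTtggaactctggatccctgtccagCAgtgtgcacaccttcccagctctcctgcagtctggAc

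Further genes of the same cells, none among the 45, were examined in lists. Of 24 other T cell genes, 15 were tested, 2 of them were lower at an unadjusted p under 0.05 and none higher, against 6.33% and 5.44% of all tested genes, and the median log2 fold change was -0.43. The lower ones were Cxcr3, a chemokine receptor of activated T cells with 76, 24 and 16 counts in the RC mice and 13, 19 and 12 in the RN mice, and Gimap4, a GTPase of lymphocyte survival with 169, 50 and 44 against 18, 40 and 50. RC replicate 1 was the highest library for 16 of the 24, against 13.6% of all tested genes, and without it 1 was higher, none was lower and the median was 0.0691. Of 10 other NK cell genes, only Cd244a passed the filter, with 13, 5 and 5 counts against 12, 22 and 17, and Ncr1, which marks NK cells, had 0 to 6 counts in a library.

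Of 21 other B and plasma cell genes, 5 were tested and 2 were higher at an unadjusted p under 0.05, against 5.44% of all tested genes. These were Cd22, a sialic acid receptor with 316, 333 and 296 counts in the RC mice and 299, 585 and 557 in the RN mice, and Sdc1, which encodes syndecan-1, with 116, 111 and 54 against 122, 199 and 175. Blk, a B cell kinase gene, had 2, 5 and 5 counts in the RC mice and 0 in every RN mouse, too few for the test. Other genes of the list with as few counts overlapped between the groups. Spib had 1, 2 and 3 counts against 3, 3 and 2, and Tnfrsf17 had 4, 1 and 0 against 2, 0 and 2.

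Ligands of the lymphocyte receptors were also counted. Of 20 genes, 14 were tested, with a median log2 fold change of 0.00364. Alcam, the ligand of CD6, alone had an unadjusted p under 0.05 and was higher, where 5.44% of all tested genes were. Without RC replicate 1, 6 of the 14 were higher at that threshold, against 6.72% of all genes then tested, and the median was 0.38. Summed over the 20 genes, the level was 3047 CPM in RC replicate 1 and 1400 to 2111 CPM in the other libraries. The listed MHC class I and class II genes had the same mouse on top as most T cell genes. Class II molecules, of which H2-Aa encodes a chain, present antigen to CD4+ T cells and bind LAG-3. H2-Aa had 7352, 1572 and 1150 counts in the RC mice and 1172, 1425 and 1413 in the RN mice (log2 fold change -1.35, SE 0.601, edgeR adjusted p = 0.437).

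Markers of other cells did not all follow RC replicate 1. The 11 genes of blood-derived myeloid cells summed to 35.3 CPM there, against 18.5 to 29.3 CPM in the other libraries, with none of them at 0 in a library. Of the 11, 6 were highest in RC replicate 1 and 3 in RC replicate 3. The 12 pan-leukocyte genes, which microglia share, summed to 611.7, 574.5 and 536.6 CPM in the RC mice and 531.2, 748.1 and 717.6 CPM in the RN mice. Of 11 tested, 1 (Cd53) was higher at an unadjusted p under 0.05, against 5.44% of all tested genes. The 6 border macrophage genes summed to 38.3 CPM in RC replicate 1, inside the range of 26.2 to 43.4 CPM of the others. Of the 6, F13a1 alone was lower at an unadjusted p under 0.05, against 6.33% of all tested genes. The 6 red blood cell genes summed to 51.4 CPM in RC replicate 1, inside the range of 31.1 to 171.5 CPM of the others. None of the 6 had an unadjusted p under 0.05, although 4 were lower in RN without RC replicate 1, against 6.81% of all genes then tested. Of the 10 choroid plexus genes, highest in RC replicates 1 and 2 as given above, 9 were lower in RN at an unadjusted p under 0.05, against 6.33% of all tested genes. The 10 meningeal fibroblast genes summed to 372.8 CPM in RC replicate 1 and to 116.9 to 432.3 CPM in the others. The part that these cells or tissues had in the lymphocyte values was not tested.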

How the data were processed

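Thalamic RNA from 3 mice of the RC group and 3 of the RN group was sequenced without sorting, and samples were grouped by their labels. The authors deposited whole-number counts of reads per gene, not normalized, with 1 column per library. The submitters' processing notes name fastp 0.18.0, FastQC, HISAT2 2.2.4, RSEM 1.2.19 and the build GRCm39, without saying what each was used for. The annotation, the use of strand and the handling of reads shared between genes are not given in the sources used here, which leaves counts of overlapping or near-identical genes uncertain. Each library was taken as 1 mouse, which the labels do not state, so p-values measure the spread between these libraries. No 2 libraries agreed within sampling noise (chi-square per degree of freedom 16.5 to 44.7).

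In R 4.3.3, edgeR 4.0.16 kept genes with filterByExpr (minimum count 10), scaled by TMM and fitted group alone by quasi-likelihood (prior count 0.125). CPM are TMM-scaled counts per 1000000, SD is over 3 mice, and SE is the standard error of the log2 fold change, taken as its size over the square root of the F statistic. P-values were adjusted by Benjamini-Hochberg over the 14956 tested genes, called under 0.05 with a fold change of at least 2. Library totals of 16561663 to 18657015 counts and a common biological coefficient of variation of 17.4% set the precision. Exact (Clopper-Pearson) 95% intervals of shares and the limit of 3 counts cover counting error only. The script was tested on simulated counts with known changes.

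The members and lists were chosen with earlier results of these data known. All 45 members are named, and from each list at most 3 tested genes with the smallest p, besides genes at or near 0 named as such and Trbc1, Ighg1 and Il7, which were named after their values were seen. Same-numbered mice deviated together across genes (r = 0.173, 0.120 and 0.209 for replicates 1 to 3), although RC replicate 1 and RN replicate 2 did too (0.156), so the replicate block is given where it changes a count. The alternatives were DESeq2 1.42.0, DESeq2's size factors in edgeR, 2 other filters, no fold threshold, the block and each library left out. Shared windows were searched on both strands of the GENCODE M21 transcripts (GRCm38), and promoters came from RefSeq (GRCm38.p6), both of another build than the one in the notes. No protein sequences were used here.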

Additional observations from a re-analysis of the deposited data

How the results depend on the processing

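No lymphocyte gene was called in edgeR under any filter, scaling, fold threshold, block or omitted library, while DESeq2's Wald test called 2 higher and 1 lower. The number lower at an unadjusted p under 0.05, 6 with all libraries, was 3 with the replicate block and ranged from 1 to 12 when each library was left out (1 of 35 without RC replicate 1, 12 of 37 without RC replicate 2, 3 of 37 without RN replicate 1 and 3 of 37 without RN replicate 3, against 6.81%, 5.55%, 4.91% and 4.91% of all genes tested). The block moved no other count by over 1.5 times. An alternative chosen after the data were seen left out each library and counted the genes whose groups did not overlap. All RN mice were above all RC mice in 2 to 5 genes (5 without RC replicate 1). All were below in 6 to 12 (12, 11 and 10 without RC replicate 2, RC replicate 3 and RN replicate 2). Fewer mice have to be separated there, and the share of all tested genes was not computed. These counts therefore cannot be read as many or few. The median log2 fold change ranged from -0.90 to -0.23 when each library was left out.

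Of the 372 alternative values of single genes, 354 kept their direction and side of the threshold, 3 passed it with DESeq2 (Lag3, Il7r and Ighg2c) and 15, in 8 genes, changed sign. With a library left out, the log2 fold change ranged from -0.43 to 0.55 for Cd5, -0.11 to 0.74 for Cd69, -0.36 to 2.33 for Ighg2b, -1.56 to 0.0135 for Klrk1, -0.38 to 0.53 for Pdcd1, -1.11 to 0.0423 for Prf1, -0.0925 to 0.28 for Skap1 and -1.60 to 0.26 for Tbx21. With the block, Cd5 was at 0.00275. The cause was not tested. At this depth, 10 of the 45 genes were below the filter and had no edgeR test with it.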

Other observations

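Variable segments of the immunoglobulin genes, which each B cell clone joins in its own combination, were counted in 216 rows of the same table, a set chosen after the values were seen. They held 493, 155 and 39 counts in the RC mice and 32, 69 and 94 in the RN mice, so that RC replicate 1 was again the highest library and RN replicate 1 the lowest. In RC replicate 1, 72 segments had at least 1 count and 36 had more than 3, against 15 to 40 and 3 to 12 in the other libraries. A library with more variable counts can show more segments, so these numbers cannot be read apart from the totals. The signal there was spread over many segments, and the largest one, Igkv1-117, took 9.13% of the variable counts with 45 counts. Some segments were found almost only in that mouse, such as Igkv8-24 with 32 counts and at most 2 elsewhere, and Ighv1-26 with 22 counts and at most 1 elsewhere. Others were shared between mice, such as Igkv1-117 with 13 counts in RC replicate 2 and 18 in RN replicate 3. Variable segments are alike in sequence and the division of shared reads is not known, so the counts of single segments are uncertain.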
